A study of Saccharomyces cerevisiae with 6 samples.

Results

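In budding yeast (*Saccharomyces cerevisiae*) cells depleted of the deadenylases Ccr4 and Pop2, the poly(A) tails of most messenger RNAs were longer than in the wild type. The genes described here are the exceptions. A gene was taken as a member when it had 20 or more reads in all 6 libraries and its median tail in the Ccr4/Pop2 degron strain exceeded that of the same-numbered wild-type library by less than 4 nucleotides (nt) in both replicates. The rule gave 113 members among the 3949 genes that met the read minimum, or 2.86%, out of 4909 genes in all. The members were thus chosen by their wild-type and Ccr4/Pop2 degron tails, so these tails are given as a description without a test. The RNA levels entered only through the read minimum, and the Dcp2 degron tails did not enter.

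The study measured native RNA by direct nanopore sequencing (kit SQK-RNA002), in which 1 read stands for 1 RNA molecule read from its 3′ end and also yields the tail length. It held 3 strains with 2 libraries each, all of mating type a. The wild type was BY4741 (leu2Δ0, his3Δ1, ura3Δ0, met15Δ0). Both degron strains were BY4741 with the allele TAO3_E1493Q, an insertion of A at -308 of RME1, and a construct at trp1-1 (TRP1, prURA3-Z3EVtf-tURA3 and Z3EV-TIR). Strain LMA5574 carried DCP2 fused to polyG-3Flag-AID with kanMX. Strain LMA5601 carried AID-3Flag-CCR4 and CAF1 (YNR052c, the gene also called POP2) fused to AID with KanMX6. AID is the auxin-inducible degron, a tag that directs destruction of the protein once auxin is present. All strains, the wild type too, were grown in YPD (30 °C, OD600 of 0.4) and then treated for 1 h with IAA, an auxin, at 100 µM together with β-estradiol at 1 µM. The strain depleted of Ccr4 and Pop2 is called the deadenylase degron in what follows. Each degron strain was a single named strain, and both differ from the wild type by more than the degron tag, so a difference between strains cannot be told apart from an effect of the other alleles. The labels do not say whether the 2 libraries of a strain came from separate cultures, so p-values measure only the spread between these libraries.

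A newly made yeast messenger RNA leaves the nucleus with a long poly(A) tail coated by the poly(A)-binding protein. In the cytoplasm the tail is shortened, first by the Pan2-Pan3 nuclease and then mainly by Ccr4 and Pop2, the nucleases of the Ccr4-Not complex. The Dcp2 enzyme then removes the cap of the shortened RNA and the body is degraded from the 5′ end. Genes of the general stress response are switched on by the transcription factors Msn2 and Msn4, which bind the stress response element, and heat shock genes by Hsf1, which binds the heat shock element.

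Libraries held 1067250 to 8450296 reads, and the median member had 56 to 648. All counts of replicate 1 of the Ccr4/Pop2 degron were multiples of 4, so they may not be numbers of separate reads. The member count stayed at 113 when they were divided by 4. For 57 of the 113 members (50.4%, against 39.8% of all genes over the read minimum) at least 1 library held fewer than 50 reads, and the error of a median tail from so few reads is not given in the files. As a check of the labels, DCP2 stood at 50.9 and 54.7 CPM (counts scaled to library size, with TMM factors) in the wild type and at 22.8 and 22.7 CPM in the Dcp2 degron. POP2 stood at 70.5 and 49.9 CPM in the wild type and at 43.7 and 30.8 CPM in the deadenylase degron. In the Dcp2 degron POP2 stood at 51.9 and 34.4 CPM, so its level does not tell the degron strains apart. The degron acts on the protein, so these values do not measure the depletion, and CCR4 is not analysed here.

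The tails of the members kept close to their wild-type length. In the replicate 1 pair their differences ran from -15.5 to 3.995 nt with a median of 2.36 nt, where the other 3836 genes had a median of 10.7 nt. In the replicate 2 pair they ran from -12.6 to 3.965 nt with a median of 1.18 nt, against 8.21 nt. The Ccr4/Pop2 degron tail was shorter than the wild-type tail in both pairs for 18 members, in 1 pair for 35 and in neither pair for 60. The limit cut through a continuum: HHT2, NEW1 and YMR315W lay just inside it, with larger differences of 3.985, 3.99 and 3.995 nt, and DBR1, SHM2 and CWH43 just outside, at 4.005, 4.025 and 4.05 nt. For 10 members both Ccr4/Pop2 degron libraries lay below both wild-type libraries, and these are all the genes over the read minimum that did so (0.253%), which the rule itself brings about. They were HSP104, HSP42, RTC3, PNC1, GLK1, its neighbour YCL042W, ENO1, ALD4, SDH4 and MPS2. For 28 members both lay above both wild-type libraries, where 90% of all genes over the read minimum did so, and this too follows from the rule.

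**Figure D1:**
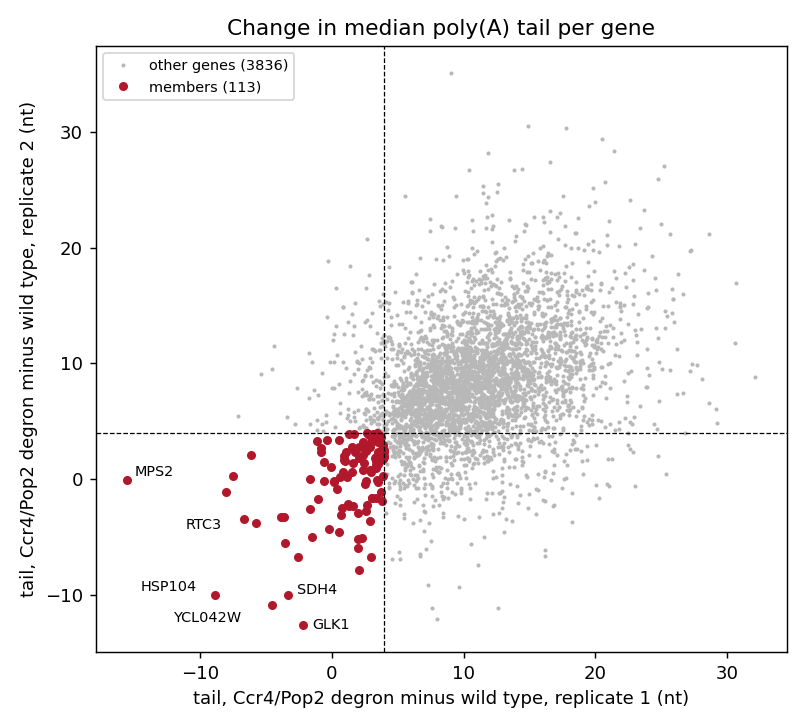
Difference in median poly(A) tail (nt) between the Ccr4/Pop2 degron and the wild type for the replicate 1 pair (horizontal axis) and the replicate 2 pair (vertical axis), 1 point for each of the 3949 genes. Members (red, 113) lie below 4 nt (dashed lines) in both pairs, and of the members GLK1, YCL042W, HSP104 and SDH4 lie lowest in the replicate 2 pair.

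HSP104 (YLL026W, chrXII:88623-91349), the disaggregase that pulls proteins out of aggregates, had the lowest tail difference by the larger of both pairs. Its median tail measured 53.1 and 56.8 nt in the wild type and 44.2 and 46.7 nt in the deadenylase degron. HSP42 (YDR171W, chrIV:806621-807748), a small heat shock protein that collects misfolded proteins, went from 52.1 and 50.2 nt to 46.3 and 46.4 nt. RTC3 (YHR087W, chrVIII:280820-281155), a stress-induced protein linked to RNA metabolism, went from 53.3 and 55.3 nt to 46.6 and 51.8 nt. All 3 genes had both Ccr4/Pop2 degron values below both wild-type values. ALD4 (YOR374W), the mitochondrial aldehyde dehydrogenase, measured 43.2 and 44.96 nt in the wild type and 39.6 and 41.7 nt in the deadenylase degron. CUR1 (YPR158W), a factor that sorts misfolded proteins, measured 53.5 and 62.2 nt against 50.9 and 55.4 nt, so its groups overlapped. MPS2, a membrane protein of the spindle pole body, had the lowest single difference, with 36.6 and 27.7 nt in the wild type and 21.1 and 27.6 nt in the deadenylase degron. It rested on 45 and 57 wild-type reads, and its wild-type libraries differed from each other by more than its Ccr4/Pop2 degron libraries did.

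Members began with long tails. The mean wild-type tail was above the median of all genes over the read minimum for 108 of the 113 members (95.6%), and the member median stood 11.1 nt above that of the other genes in wild-type replicate 1 and 8.23 nt above it in replicate 2. In the Ccr4/Pop2 degron the member median was 0.905 and 0.1 nt below that of the other genes, which is -0.905 and -0.1 nt as member minus other. The other genes had medians of 50.7 and 51.6 nt there, and the members had 49.3 and 50.9 nt in the wild type. The rule keeps a member's Ccr4/Pop2 degron tail near or below its wild-type one. No common end length is therefore read from these medians. A long wild-type tail is favoured by the rule, because the wild-type value is subtracted. Among the 107 genes with a mean wild-type tail of 55 nt or more, 23 were members (21.5%), among the 282 genes from 50 to 55 nt 35 (12.4%), among the 663 genes from 45 to 50 nt 29 (4.37%), and among the 1204 genes from 35 to 40 nt 3 (0.249%). The other 84 of the 107 genes in the longest class lengthened past the limit in at least 1 pair. The longest wild-type tails among members belonged to RGI1 (65.4 and 61.4 nt), a gene of respiratory energy metabolism, THP3 (59.3 and 64.4 nt), which acts in transcription elongation, YCL042W, YDL129W and COX23 (59.8 and 58.3 nt), a protein of the mitochondrial intermembrane space.

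At the short end stood ENO2, CDC19, MPS2, PDX3 and the small frame YJL047C-A. ENO2 (YHR174W, chrVIII:451327-452640), the enolase of growth on glucose, was the most abundant member, at 33457 and 43444 CPM in the wild type. Its tail measured 33.8 and 34.4 nt in the wild type, 34.96 and 34.6 nt in the deadenylase degron, and 33.8 and 34 nt in the Dcp2 degron. The 6 values spanned 1.19 nt, the narrowest span of the 113 members, followed by TIP1 with 3.95 nt. It rested on 34843 to 264600 reads per library, so few reads do not limit this value. CDC19 (YAL038W, chrI:71786-73288), pyruvate kinase, measured 34.8 and 39.4 nt in the wild type and 38.2 and 41.0 nt in the deadenylase degron. PDX3, which makes the active form of vitamin B6, measured 38.3 and 38.4 nt against 41.4 and 42.2 nt.

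Glycolysis and fermentation was the list with the largest share of members among the 27 functional lists with a gene over the read minimum: 9 of its 22 genes (40.9%) were members, against 2.86% of all. They covered both enolases, both phosphofructokinase subunits, 2 of the sugar kinases, pyruvate kinase, 1 glyceraldehyde-3-phosphate dehydrogenase and 1 alcohol dehydrogenase. ENO1 (YGR254W, chrVII:1000927-1002240), the second enolase, went from 41.5 and 41.7 nt to 37.7 and 38.4 nt. TDH1 (YJL052W), the isoenzyme of glyceraldehyde-3-phosphate dehydrogenase of slow growth, went from 50.6 and 58.7 nt to 47.1 and 53.1 nt. GLK1 (YCL040W, chrIII:50838-52340), glucokinase, went from 53.0 and 64.6 nt to 50.8 and 52.0 nt. HXK2, the main hexokinase of growth on glucose, went from 46.6 and 50.9 nt to 49.5 and 51.6 nt, and the groups overlapped. PFK1 and PFK2, the subunits of phosphofructokinase, had differences of 0.53 and -4.62 nt and of 0.72 and -3.15 nt, and ADH5, an alcohol dehydrogenase, 2.29 and -5.10 nt. The other 13 genes of the list lengthened by 4 nt or more in at least 1 pair. The median gene of the list changed by 4.44 and 1.79 nt, against 10.5 and 8.07 nt over all genes over the read minimum. Enolase and glyceraldehyde-3-phosphate dehydrogenase isoenzymes are similar in sequence, and how reads were assigned between them is not given in the sources used here.

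**Figure D2:**
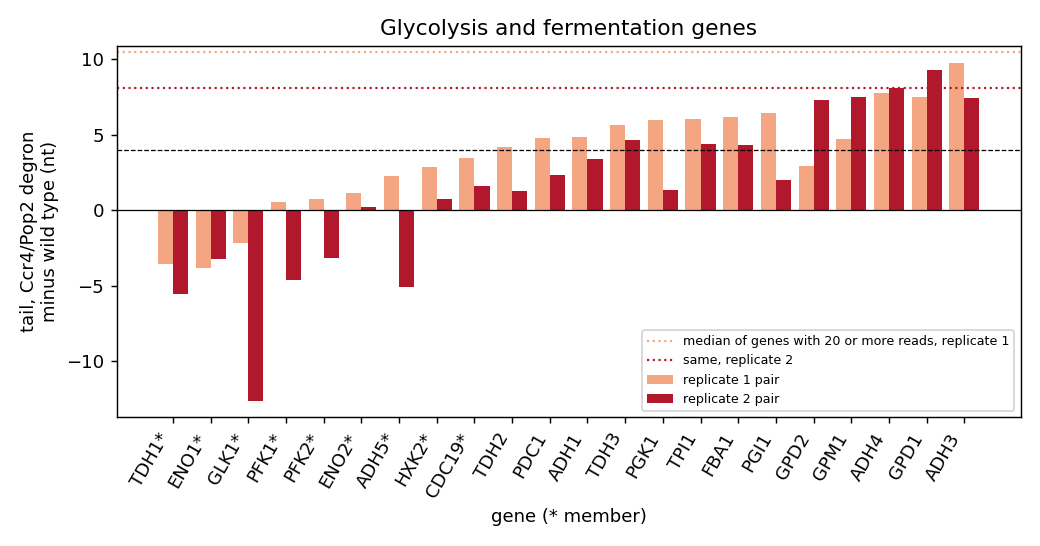
Difference in median tail (nt) between the Ccr4/Pop2 degron and the wild type for the 22 glycolysis and fermentation genes, as 2 bars for each gene (replicate 1 and replicate 2 pairs), sorted by the larger difference. The dashed line is the 4 nt limit and the dotted lines are the medians of the 3949 genes. The 9 members, marked with an asterisk, stand at the left, and the bars of most of the list lie below the dotted lines.

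Storage sugar genes, a list drawn up after the members were seen, held 4 members among 7 genes over the read minimum, of 15 in the table. Other lists drawn up then held lower shares, with 2 of 6 for the eisosome, 3 of 15 for the TCA cycle and 2 of 8 for heme synthesis. TPS1 (YBR126C, chrII:488905-490392), trehalose-6-phosphate synthase, measured 50.7 and 55 nt in the wild type and 49.7 and 53.2 nt in the deadenylase degron. The phosphatase subunit TPS2, the neutral trehalase NTH1 and the glycogen synthase GSY2 had differences of 3.08 and -1.67, 1.96 and -2.93, and 2.88 and -3.67 nt. UGP1, PGM1 and NTH2 exceeded the limit in at least 1 pair. In the chaperone and stress list 6 of 47 genes were members (12.8%): HSP104, HSP42, RTC3, the Hsp40 co-chaperone SIS1, the inducible Hsp70 SSA4 and MSC1. SIS1 measured 44.5 and 49.1 nt in the wild type and 45.3 and 49.7 nt in the deadenylase degron. The median gene of this list changed by 7.31 and 5.11 nt, against 10.5 and 8.07 nt over all genes over the read minimum. HSP12, which was no member, measured 15.5 and 24.9 nt in the wild type, from 26 and 29 reads. In the deadenylase degron it measured 33.6 and 34.6 nt.

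Cell wall genes held 5 members among 43 (11.6%). The mannoproteins SED1 (55.9 and 53.9 nt in the wild type, 57.7 and 56.3 nt in the deadenylase degron), TIP1 and CWP1, the glucanase BGL2 and the phospholipase PLB1 made up this group. Of the 55 genes of the respiratory chain and ATP synthase list, 4 were members (7.27%). These were the succinate dehydrogenase subunits SDH4 (55.8 and 61.7 nt against 52.5 and 51.7 nt) and SDH2, COX23, and STF2, a protein of desiccation tolerance. Mitochondrial import and carriers had 3 of 45 (the porin POR1, the ADP/ATP carrier PET9 and the phosphate carrier MIR1), amino acid biosynthesis 6 of 87 (LYS4 and ARO1 among them), and nutrient transporters 3 of 57 (HXT6, TPO2 and PHO87). In the cell cycle list 4 of 120 were members (3.33%), CDC1, MCM3, SPO7 and CDC19, of which the last is pyruvate kinase and fell in the list by its name. The lists of the gene expression machinery differed among themselves. Members numbered 1 of 137 cytoplasmic ribosomal proteins (RPL15B), 1 of 148 ribosome biogenesis factors (NSR1) and 0 of 73 mitochondrial ribosomal proteins, but 2 of 42 translation factors (4.76%, RPG1 and ANB1) and 2 of 69 splicing and export factors (2.90%, NPL3 and NAB6). Among 35 RNA decay factors the only member was PAT1, an activator of decapping, at 52.6 and 62.1 nt in the wild type and 51.1 and 57.1 nt in the deadenylase degron. Altogether 54 members stood in at least 1 of the 27 functional lists, without those drawn up later. No standard name was given for 12 members (10.6%, against 7.98% of all genes over the read minimum).

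The promoter windows of several of these genes are shown because the stress response element recurred in them. The window ran from 450 to 151 bases before the start codon (300 bases, RefSeq annotation of build R64), and all 113 members could be matched. Capitals mark the stress response element (AGGGG on the printed strand, CCCCT for the other strand) and the heat shock element (TTCNNGAA or GAANNTTC, which each read the same on both strands and can overlap each other). The genes shown are HSP104 and RTC3, with shortened tails and stress roles, TPS1 with the most elements of the members printed, GLK1 from glycolysis, and CDC19 as a glycolytic member with neither element. The windows lay at chrXII:88173-88472 for HSP104, chrVIII:280370-280669 for RTC3, chrII:490543-490842 (minus strand) for TPS1, chrIII:50388-50687 for GLK1 and chrI:71336-71635 for CDC19.
HSP104: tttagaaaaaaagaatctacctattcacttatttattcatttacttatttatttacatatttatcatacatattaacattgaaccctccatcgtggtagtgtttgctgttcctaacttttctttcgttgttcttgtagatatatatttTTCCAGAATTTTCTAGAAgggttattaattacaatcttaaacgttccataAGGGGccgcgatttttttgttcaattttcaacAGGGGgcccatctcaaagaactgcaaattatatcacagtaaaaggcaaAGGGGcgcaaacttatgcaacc
RTC3: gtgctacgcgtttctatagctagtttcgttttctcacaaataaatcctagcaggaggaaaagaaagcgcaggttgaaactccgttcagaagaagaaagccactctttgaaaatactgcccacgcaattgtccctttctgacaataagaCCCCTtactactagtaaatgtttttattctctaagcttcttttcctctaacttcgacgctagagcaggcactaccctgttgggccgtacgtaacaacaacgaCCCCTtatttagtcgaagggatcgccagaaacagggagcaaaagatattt
TPS1: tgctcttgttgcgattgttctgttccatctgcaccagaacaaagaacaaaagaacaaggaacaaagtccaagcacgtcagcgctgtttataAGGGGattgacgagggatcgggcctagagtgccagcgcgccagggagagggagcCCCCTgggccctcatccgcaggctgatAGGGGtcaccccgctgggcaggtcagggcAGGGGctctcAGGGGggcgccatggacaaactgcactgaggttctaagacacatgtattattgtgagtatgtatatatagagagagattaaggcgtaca
GLK1: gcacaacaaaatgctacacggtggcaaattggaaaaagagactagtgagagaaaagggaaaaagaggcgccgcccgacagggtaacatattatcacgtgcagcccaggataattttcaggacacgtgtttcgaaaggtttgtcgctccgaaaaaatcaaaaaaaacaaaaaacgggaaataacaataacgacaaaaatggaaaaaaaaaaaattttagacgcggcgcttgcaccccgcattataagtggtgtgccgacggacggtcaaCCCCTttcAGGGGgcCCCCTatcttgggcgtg
CDC19: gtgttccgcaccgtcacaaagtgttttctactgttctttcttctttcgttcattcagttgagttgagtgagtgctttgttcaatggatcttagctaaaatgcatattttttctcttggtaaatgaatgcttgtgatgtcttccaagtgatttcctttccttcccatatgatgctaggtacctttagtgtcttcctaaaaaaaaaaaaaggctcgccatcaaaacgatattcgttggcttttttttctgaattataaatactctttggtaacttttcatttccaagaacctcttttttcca

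HSP104 held 3 matches of each element, RTC3 2 stress response elements, TPS1 5 and GLK1 3. The GLK1 window runs into the annotated frame YCL042W, which overlaps GLK1 on the same strand. At least 1 stress response element was found in the windows of 45 members (39.8%) and of 22.3% of the 3836 other genes. Windows with 2 or more were found for 22 members (19.5%) and for 3.13% of the other genes. The 22 were ALD4, EIS1, EMI2, GLK1, GSY2, HSP104, HSP42, LSP1, NTH1, PHM8, PNC1, PRC1, RGI1, RTC3, RTN1, SSA4, STF2, TDH1, TPS1, TPS2, YDL124W and YKL091C. The heat shock element was found in the windows of 30 members (26.5%) and of 23.2% of the other genes. A match is a stretch of letters and not a measured binding site.

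RNA levels were tested next, with edgeR's quasi-likelihood test on all 4909 genes and Benjamini-Hochberg adjustment. Same-numbered libraries deviated together in level, with correlations of 0.804, 0.823 and 0.794 for the 3 pairs of strains, so values with the replicate number as a block stand beside those without it. The labels do not say what a shared number marks. In the Ccr4/Pop2 degron the test without the block called 1 member, the glucose transporter HXT6, where 0.0815% of all genes and 0.076% of those over the read minimum were called. With the replicate block it called 33 members higher (29.2%) and 8 lower (7.08%), where 14.2% of all tested genes were called higher and 12.8% lower. Over the genes that met the read minimum the shares were 14.6% and 14.2%, or 28.8% in either direction. The other 72 members passed in neither direction. The median log2 change of the members was 0.13 without and 0.15 with the block, against -0.027 and -0.025 for the other genes. It was -0.013 without replicate 1 of the Ccr4/Pop2 degron.

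HXT6 (YDR343C, chrIV:1159608-1161320) stood at 37.6 and 27.4 CPM in the wild type and 580 and 417 CPM in the deadenylase degron, from 73 and 34 wild-type reads. Its log2 change was 3.93 with an edgeR adjusted p of 0.046 without the block, and 3.93 ± 0.16 (SE) with an adjusted p of 5.85e-12 with it. The call without the block was lost when any 1 of the 6 libraries was left out. HXT7, a nearly identical neighbour, was no member, with tail differences of 2.91 and 5.39 nt, and reads of the pair cannot be told apart with certainty. RTC3 stood at 33.96 and 53.1 CPM in the wild type and 378 and 609 CPM in the deadenylase degron, a log2 change of 3.49 ± 0.15 (SE) with the block (edgeR adjusted p 9.43e-12, and 0.119 without). CUR1 stood at 24.7 and 28.2 CPM against 88.3 and 129 CPM, a change of 1.99 ± 0.21 (adjusted p 2.09e-06 with edgeR's block, 0.151 without). All 3 genes had both degron values above both wild-type values.

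SSA4 stood at 16.98 and 16.1 CPM in the wild type and 57.9 and 58.9 CPM in the deadenylase degron (log2 change 1.79 with the block, edgeR adjusted p 0.00011). GLK1 stood at 67.4 and 67.6 CPM against 270 and 184 CPM (1.77, edgeR adjusted p 3.12e-07), and YCL042W, which overlaps it, changed by 1.86. HSP42 stood at 26.8 and 19.3 CPM against 99.8 and 50.7 CPM (1.73, edgeR adjusted p 1.07e-05). These genes also had no overlap between groups. HSP104 and SIS1 changed by 0.77 and 0.87 with the block and the cell wall genes SED1, CWP1 and BGL2 by 1.37, 1.39 and 0.50, and all 5 passed edgeR's test with it. PLB1 of the cell wall list (0.77) also passed with the block, while TIP1 of that list (0.24) and MSC1 of the stress list (0.051) did not. None of these genes passed without the block. TPS1 did not pass, at 123.99 and 130 CPM against 147 and 105 CPM, nor did ENO2, at 33457 and 43444 CPM against 28348 and 44340.0 CPM. ENO1 did not pass either (0.082 ± 0.11, SE). Of the 22 genes of the glycolysis list, edgeR with the block called 2 higher and 4 lower, and the median log2 change was -0.11.

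The members called lower in the deadenylase degron with the block included NIT1 (-1.23), a nitrilase, and its neighbour YIL165C (-1.04), PEX28 (-1.01), a peroxisomal membrane protein, NSR1 (-0.52), a nucleolar protein of ribosomal RNA processing, HEM13 (-0.52), an enzyme of heme synthesis, and HHT2 (-0.51), histone H3. CDC19 fell by 0.36 on the log2 scale (adjusted p 0.0362). NIT1 stood at 21.6 and 55.6 CPM in the wild type and 9.86 and 25.4 CPM in the deadenylase degron. Each pair of same-numbered libraries shows the decrease, while the groups overlap.

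**Figure D3:**
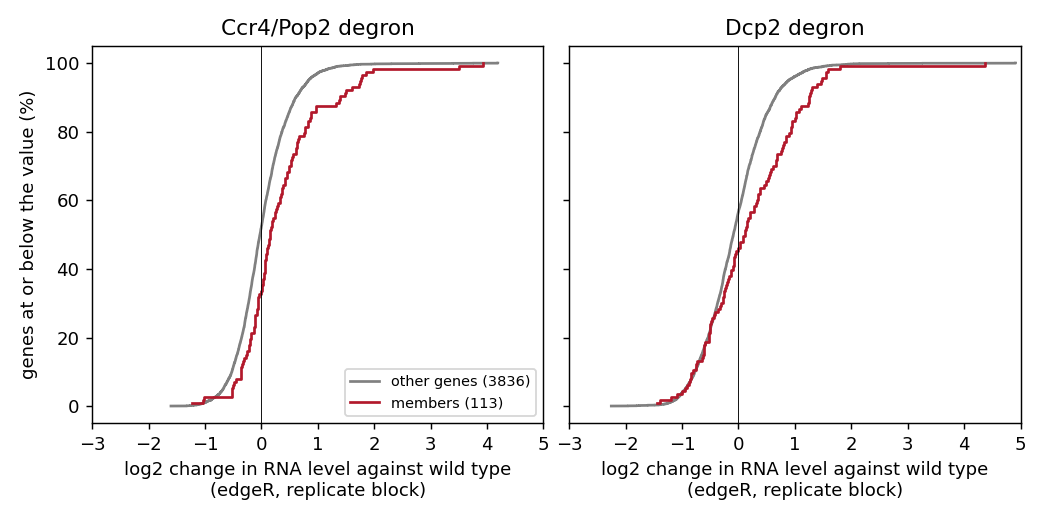
Cumulative distribution of the log2 change in RNA level against the wild type (edgeR with the replicate block) for the 113 members (red) and the 3836 other genes (grey), for the Ccr4/Pop2 degron and the Dcp2 degron. The member curves lie to the right of the grey ones in their upper part. In the deadenylase degron 29.2% of the members were called higher and 7.08% lower, against 14.6% and 14.2% of the genes over the read minimum. In the Dcp2 degron it was 33.6% higher and 23.01% lower, against 15.1% and 24.2%.

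In the Dcp2 degron, whose wild-type libraries are shared with the comparison above, edgeR without the block called 0 members (27 at an unadjusted p under 0.05, and DESeq2 called 1), where 0% of all genes were called. With the replicate block it called 38 members higher (33.6%) and 26 lower (23.01%), against 17.6% and 19.7% of all tested genes. Of those over the read minimum 15.1% were called higher and 24.2% lower, or 39.2% in either direction. Scaling by total counts moved the median of all genes over the read minimum from -0.09 to 0.43 and the split of the members with the block to 64 higher and 9 lower, so these directions are relative to the median gene. RTC3 stood at 722 and 1066 CPM, above both wild-type values, and changed by 4.37 ± 0.15 (SE, edgeR adjusted p 1.99e-13 with the block, 0.139 without). SSA4 stood at 78.4 and 37.4 CPM, a change of 1.79. UGA1, which breaks down GABA, rose with the block from 35.5 and 42.7 CPM to 97.6 and 139 CPM (1.59). GTT2, a glutathione transferase, changed by 1.55, YIL165C by 1.55 and the meiotic gene MSH5 by 1.47, and all passed with the block.

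HEM13 was the member with the strongest decrease in the Dcp2 degron, from 116 and 101 CPM to 39.5 and 40.4 CPM, a log2 change of -1.45 with an edgeR adjusted p of 5.04e-06 with the block (0.194 without). The phosphate carrier MIR1 (-1.39), HHT2 (-1.20), HXK2 (-1.08), NSR1 (-0.996) and PET9 (-0.94) were also called lower with the block, and so was ENO2, at 21513 and 34606 CPM with a change of -0.48. Under the block 29 members were called in both degrons. Of these, 19 were higher in both, 5 were lower in both, 3 were higher in the deadenylase degron and lower in the Dcp2 degron, and 2 went the opposite way. These 2 were NIT1 and YIL165C, which share a strand and lie 9 bases apart. Both comparisons use the same wild-type libraries, and the share of all genes called in both is not given here. The counts called in both are therefore not read as a trait of the members.

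Members with 2 or more stress response elements were often called higher. Of these 22, edgeR with the block called 15 higher and 1 lower in the deadenylase degron, with a median log2 change of 0.72, and 14 higher and 1 lower in the Dcp2 degron, with a median of 0.78. Of the other 91 members it called 18 higher and 7 lower in the deadenylase degron (median 0.082), and 24 higher and 25 lower in the Dcp2 degron (median -0.082). Of the 120 genes that were no members but held 2 or more elements, 29 were higher and 10 lower in the deadenylase degron, and 33 higher and 17 lower in the Dcp2 degron. Over all genes that met the read minimum, 14.6% were called higher and 14.2% lower in the deadenylase degron. In the Dcp2 degron these shares were 15.1% and 24.2%.

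Levels were also set beside those of other genes of similar wild-type tail, with no test of the difference. Of the 35 members with a mean wild-type tail from 50 to 55 nt, 34.3% were called higher in the deadenylase degron with the block, against 12.6% of the other genes of that class. In the class of 55 nt or more it was 39.1% of 23 members and 23.8% of the others, and in the class from 45 to 50 nt 27.6% of 29 members and 13.4% of the others. From 40 to 45 nt it was 19.0% of 21 members and 16.0% of the others. None of the 5 members under 40 nt was called higher. In the Dcp2 degron the median log2 change (with the block) was 0.62 in members and 0.15 in the others from 50 to 55 nt, and 0.55 against 0.35 at 55 nt or more. The order was the opposite in the class from 45 to 50 nt, with -0.22 against 0.087, and from 40 to 45 nt, with -0.20 against -0.023.

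Tails in the Dcp2 degron varied widely among the members. The member median stood above that of the other genes by 4.195 nt in replicate 1 and 3.4475 nt in replicate 2. The gaps were larger in the wild type, but the rule selects high wild-type values, so nothing is read from that difference in gaps. Both Dcp2 degron libraries lay below both wild-type libraries for 67 members (59.3%), where 44.9% of all genes over the read minimum did so, and above both for 2 members (1.67% of all). The rule selects high wild-type values, which moves this share, so nothing is read from it. The members' tails spread more between genes in the Dcp2 degron, with an SD over members of 8.91 and 7.99 nt, than in the wild type, with 6.21 and 6.62 nt. Over the other genes the SD was also larger, at 7.18 and 7.01 nt against 6.65 and 6.69 nt. The wild-type spread of the members is shaped by the rule, and no difference in spread was tested.

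By their mean, the shortest Dcp2 degron tails of members belonged to RTC3, SSA4, CUR1, PNC1 and HSP104. RTC3 measured 17.3 and 23.2 nt there, against 53.3 and 55.3 nt in the wild type. HSP104 measured 18.0 and 30.8 nt, CUR1 13.8 and 33.97 nt, SSA4 16.3 and 31.2 nt, and PNC1, the nicotinamidase of NAD salvage, 16.9 and 31.2 nt. In each of these 5 genes both Dcp2 degron values lay below both wild-type values and below both Ccr4/Pop2 degron values. Replicate 1 was the lower library in all 5, and it was also lower in general. The Dcp2 degron median was 35.5 against 42.1 nt over the members and 31.3 against 38.6 nt over the other genes. Of the other chaperone and stress members, HSP42 measured 41.2 and 49.6 nt, SIS1 24.9 and 48.7 nt, and MSC1 28.6 and 34.5 nt. A mean Dcp2 degron tail under 30 nt was found for 9 members, the others being RPL15B, UNG1, PDX3 and RCR2. That is 7.96% of the members, against 17.9% of the other genes. Among genes with a mean wild-type tail of 45 nt or more the order was the opposite. There it was 5 of 87 members (5.75%) and 22 of 965 others (2.28%), and neither difference was tested. With the block, edgeR called 7 of the 9 members under 30 nt higher in level in the Dcp2 degron and 0 lower. Of the genes over the read minimum 15.1% were called higher and 24.2% lower. Without the block it called 0 of them. The longest mean tails in the Dcp2 degron belonged to TPO2 (56.9 nt), a polyamine exporter, RGI1 (55.9 nt), THP3 (55.3 nt), RIE1 (54.8 nt) and SED1 (52.8 nt). Of the cell wall members, SED1 measured 54.1 and 51.4 nt in the Dcp2 degron and 55.9 and 53.9 nt in the wild type, and TIP1 51.1 and 52.4 nt against 52.2 and 53.6 nt, so the groups overlapped in both genes. CWP1 measured 31.4 and 39.8 nt against 45.9 and 48.4 nt, and PLB1 43.2 and 41.7 nt against 48.8 and 54 nt, with both Dcp2 degron values below both wild-type values.

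**Figure D4:**
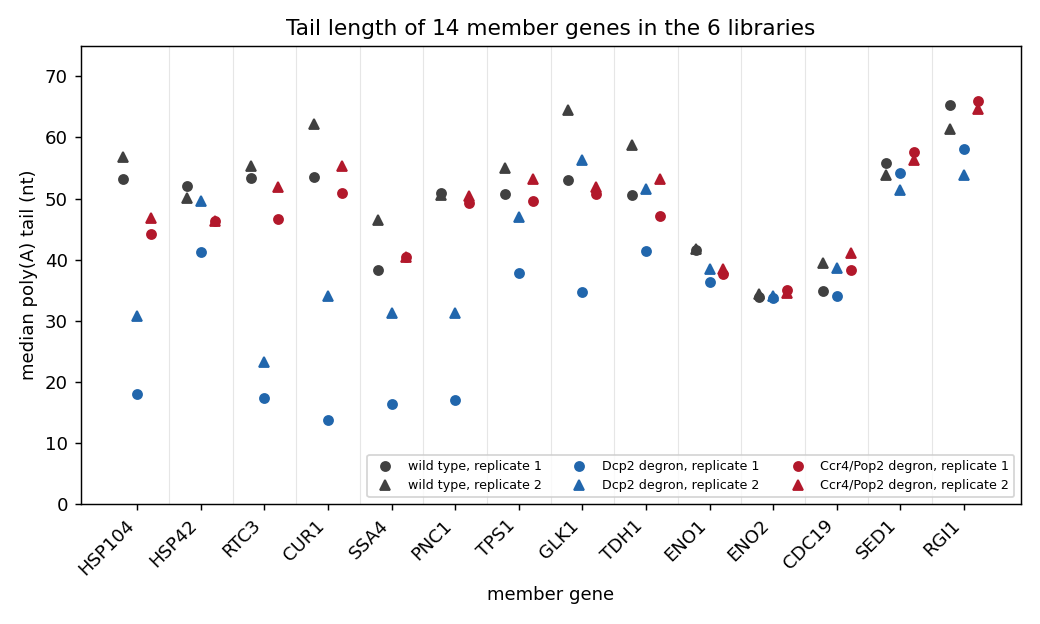
Median poly(A) tail (nt) of 14 members in each of the 6 libraries, with circles for replicate 1 and triangles for replicate 2 and colours for the strain. In HSP104, RTC3, CUR1, SSA4 and PNC1 the Dcp2 degron values lie far below the others, while the 6 values of ENO2 lie between 33.8 and 34.96 nt.

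Members had a lower median level than the other genes and a similar median length, neither of them tested. Their median wild-type level was 43.5 CPM, or 44.9 CPM per kilobase of coding region, against 59.5 and 55.2 for the other genes. The range ran from 16.0 to 38450 CPM, with 61 members under 50 CPM and 4 above 1000 CPM (ENO2, CDC19, ENO1 and HHT2). The coding region measured 1128 bases in the median member and 1113 in the median other gene. In the table's identifiers 3 members (2.65%) carry the suffix "exon", against 6.0% of all genes over the read minimum. Some members are not independent. YCL042W overlaps GLK1, CDC1 lies 93 bases from YDR182W-A, FKS1 182 bases from YLR342W-A and YIL165C 9 bases from NIT1, each pair on the same strand. SDH2 and VPS13, also on the same strand, lie 279 bases apart. The lower count was 91.3 to 97.1% of the higher one in the CDC1 pair, 92.9 to 99.4% in the FKS1 pair and 79.3 to 94.5% in the YIL165C pair. The same molecules may thus have been counted for both genes of these pairs. In the SDH2 pair this share was 43.1 to 80.8%, and in the GLK1 pair 44.6 to 58.0%.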

How the data were processed

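The deposited table holds read counts per gene and library, which are not normalized per the file headers, and a median per gene and library, taken as poly(A) tail length in nt because the authors' table is named after nanopolish. The tail value is a signal in nt that the authors deposited without scaling. The authors' group means and the log2 of mean counts, also deposited, were not used. Per the submitters' processing notes, minimap2, SAMtools 1.9 and the build sacCer3 were used. The basecaller and the rule for assigning reads are not given in the sources used here. Unnumbered columns were read as replicate 1, by elimination.

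Levels were tested with edgeR 4.0.16 in R 4.3.3 (quasi-likelihood test, TMM scaling) in 1 model of all 6 libraries, and no gene was lost to filterByExpr. Standard errors were derived from the F statistic, and an adjusted p under 0.05 was called. Only the fit without the block was run on simulated counts, which held no replicate effect. That run does not check the fit with the block. DESeq2 1.42.0, other scalings, filters and left-out libraries were alternatives. Same-numbered libraries deviated together in level (0.804, 0.823 and 0.794) but weakly in tail length (0.257, 0.148 and 0.0548), so the block was used for levels, and the pairing comes from the replicate numbers alone. Promoter windows and gene coordinates were read from RefSeq's R64 assembly, the assembly from which sacCer3 derives, and 4908 of 4909 identifiers matched.

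Named genes are the 10 members with the lowest tail difference, the 10 most abundant, the 6 with the largest changes called in each direction, up to 4 per list with 3 or more members, the extremes of wild-type tail length and the neighbours of the limit. All other genes named, among them RPL15B, PAT1, PFK1, ADH5, HXT7, HSP12, the storage sugar genes and those listed with elements, were chosen after their values were seen. The members and lists were chosen with earlier results of these data known.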

Additional observations from a re-analysis of the deposited data

How the results depend on the processing

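With the replicate block the members called numbered 41 in the Ccr4/Pop2 degron and 64 in the Dcp2 degron, against 1 and 0 without it. The block with total-count scaling gave 47 and 73, with the replicate 1 counts of the Ccr4/Pop2 degron divided by 4 it gave 39 and 64, and with 1 gene of each neighbouring pair left out it gave 39 and 61, the last 2 chosen after seeing the data. Without the block, DESeq2 called 5 and 1 and total-count scaling 0 and 1. In the Ccr4/Pop2 degron 0 were called with RLE scaling, with only genes of 20 or more reads in the model, with only the 4 libraries compared, and for members under 3 nt or with 50 reads. Leaving out each library gave 0 to 0 in both degrons. The median level change of members in the Ccr4/Pop2 degron was 0.28 for members under 3 nt, 0.27 with total-count scaling with or without the block, and -0.013 to 0.29 without each library. In the Dcp2 degron it was 0.24 for members under 3 nt, -0.040 under 5 nt, -0.18 with 50 reads, 0.61 and 0.64 with total-count scaling without and with the block, and 0.19 with only genes of 20 or more reads in the model. Without each library it ran from -0.018 to 0.20, with -0.011 without replicate 1 of the Dcp2 degron. The causes of these moves were not tested. The rule gave 65 members under 3 nt, 185 under 5 nt, 56 with 50 reads and 288 on group means, and on 1 pair alone 280 to 661. The gap of member tails in the Dcp2 degron (3.82 nt) was 5.01 under 3 nt, 4.71 with 50 reads, 4.53 with a ratio of under 10%, 3.07 on group means and 2.52 to 3.35 on 1 pair alone. The gap in the wild type (9.68 nt) was 5.47 to 7.87 nt on 1 pair alone. With 2 libraries a strain and medians of 56 to 648 reads per member, differences near the limit cannot be resolved.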

Other observations

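Tail changes were also set beside level changes over all genes. Among all genes over the read minimum, the 578 called higher in the deadenylase degron with the block lengthened by a median of 10.9 and 7.08 nt in the replicate pairs, the 559 called lower by 9.56 and 8.165 nt, and the 2812 not called by 10.7 and 8.235 nt. Members made up 5.71% of the first class, 1.43% of the second and 2.56% of the third. Of the 126 genes called higher by over 1 on the log2 scale, 14 were members (11.1%). Of the 12 higher by over 2, which are among the 126, 2 were members (16.7%), too few to compare the shares. Mitochondrial ribosomal protein genes, of which 70 of 73 were called higher with the block, lengthened by medians of 11.85 and 7.31 nt and held 0 members. Of the chaperone and stress list 26 of 47 genes were called higher with the block, and most lengthened past the limit in at least 1 pair. SSA1, a cytosolic Hsp70, measured 28.9 and 29.3 nt in the wild type and 35.8 and 37.6 nt in the deadenylase degron. HSP82, a Hsp90, differed between its wild-type libraries, at 18.2 and 41.96 nt, and measured 38.2 and 41.4 nt in the deadenylase degron. HXK1, a hexokinase that did not meet the read minimum, measured 55.02 and 60.6 nt in the wild type and 56.9 and 60.2 nt in the deadenylase degron. These genes were chosen after their values were seen.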
